A study of Arabidopsis thaliana with 6 samples.

Results

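The transcripts described here were the most abundant nuclear transcripts of wild-type Arabidopsis thaliana seedlings, 192 probe sets for 192 genes. A probe set is the group of array probes that reports 1 transcript. Of 22746 probe sets other than array controls, 13367 were annotated to exactly 1 nuclear gene. They were ranked by their mean level over the 3 wild-type arrays, and the top 200 were taken. A list of 13 genes was then left out by name, 8 of which were among the 200: RCA, PSAE-1, PYK10, PRK, PDF1.2b, PDF1.2, GSTU20 and TUA6.

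The 6 samples were whole seedlings of 9 days. Wild type was Col-0, and the mutant carried the myb3r1 and myb3r4 mutations together, in the same accession. Each of the 3 experimental sets held 1 array of each genotype, and the design pairs the arrays by set. All seedlings grew without treatment on MS agar medium with sucrose in continuous light, and the comparison asks how the double mutation changes the transcriptome. The alleles are not given in the labels. MYB3R1 and MYB3R4 had no probe set named in the annotation used here, so the mutated genes could not be checked on the arrays. Of 10 markers fixed for green shoot tissue 0 had a named probe set, and of 8 for root 3 did. Among these PYK10, a beta-glucosidase of root endoplasmic reticulum bodies, had a wild-type level of 5.88, NAI2 of 3.42 and the root-hair expansin EXPA7 of -1.72. None of the 12 seed markers had a named probe set, so the labelled tissue could be checked on the root side alone.

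MYB3R1 and MYB3R4 are transcription factors known for activating genes needed in mitosis and cytokinesis. Abundant mRNAs of a green seedling come mostly from genes with steady work in every leaf cell: nuclear-encoded proteins of the photosystems and the Calvin cycle, which are imported into chloroplasts, glycolytic enzymes, ribosomal proteins, and small redox and metal-binding proteins. Chloroplasts have their own genome as well, so that the photosynthetic machinery draws on nuclear and plastid transcripts together.

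Levels are given on a log2 scale on which the median signal of an array is 0, so that 0 is the median probe set and 1 unit is a 2-fold difference. Wild-type means of the 192 members ran from 6.79 for AT2G25510, 110-fold the array median, to 4.38 for LCR68, 20.9-fold the median. Their median was 5.13, or 34.9-fold. The brightest member was 5.30-fold the dimmest. The members were selected on these wild-type levels, which are given as a description with no test. Just inside the limit lay AT3G04920 at 4.39, AT2G27730 at 4.39 and LCR68 at 4.38. Just outside lay AT1G26550 at 4.38, ALATS, an alanyl-tRNA synthetase, at 4.34 and AT1G53210 at 4.34. Over the 3 wild-type arrays the SDs of these probe sets ran from 0.0074 for AT2G27730 to 0.36 for ALATS, with 0.26 for AT1G26550. For those with a large SD, the side of the limit on which they fell is uncertain.

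The 192 members were 31.9% of the 602 probe sets at or above the limit. Another 335 of these, 55.6%, carried no gene name in the annotation used here, 39 carried several genes and 28 carried a single plastid gene. The 39 included probe sets with the chloroplast gene names rpl2, rpl23, rps7 and ycf1, so the 28 are not all bright plastid probe sets. A name beyond a locus tag was given for 40 of the 192, and 152 had a locus tag only. For those 152 no function is given here, and any account of dominating functions covers the 40 alone. None of the 192 belonged to the probe-set types marked as shared between transcripts.

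Of the 40 named members 37 were assigned a role, and 18 of these 37 serve the chloroplast or photorespiration. Such counts depend on which genes carry a name and cannot rank functions among the 192. Members of the thylakoid membrane and the light reactions numbered 10. Another 8 act in plastid metabolism, plastid biogenesis or photorespiration. Cytosolic and mitochondrial metabolism also held 8, redox, metal binding, stress and defence 7, and protein synthesis, protein turnover and RNA binding 4. The remaining 3, ECS1, CP5 and CCL, were given no role. These groups were assembled by hand after the values were seen. In classes based on gene names, counted without the 13 genes left out, 21 of the 192 found a place. Of the single-gene probe sets with a name that matched light harvesting and photosystems, 5 of 6 were members. For metallothioneins, redox and stress protection it was 5 of 42. Photosynthetic electron transport and ATP synthase had 1 of 1. Cytosolic ribosomal proteins had 0 of 1, as did translation elongation and initiation, and the ribosomal protein gene PGY1 was placed in neither. With so few matching names, these classes do not show how many members serve protein synthesis. Of the probe sets for ubiquitin and proteolysis 1 of 34 was a member, as were 0 of 9 for histones and 0 of 9 for the cytoskeleton. The tubulin gene TUA6, with a wild-type mean of 4.46, was among the genes left out by name. The class totals count matching names only, not all genes of a function, and 8730 probe sets on the array had no gene name. Probe sets with several genes were not counted in these classes either. Those at or above the limit included a probe set shared by HIS4 and other genes, at 5.44, and that of TUA5 and TUA3, at 4.40. The counts of 0 thus do not mean that bright histone or tubulin transcripts were absent.

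**Figure D1:**
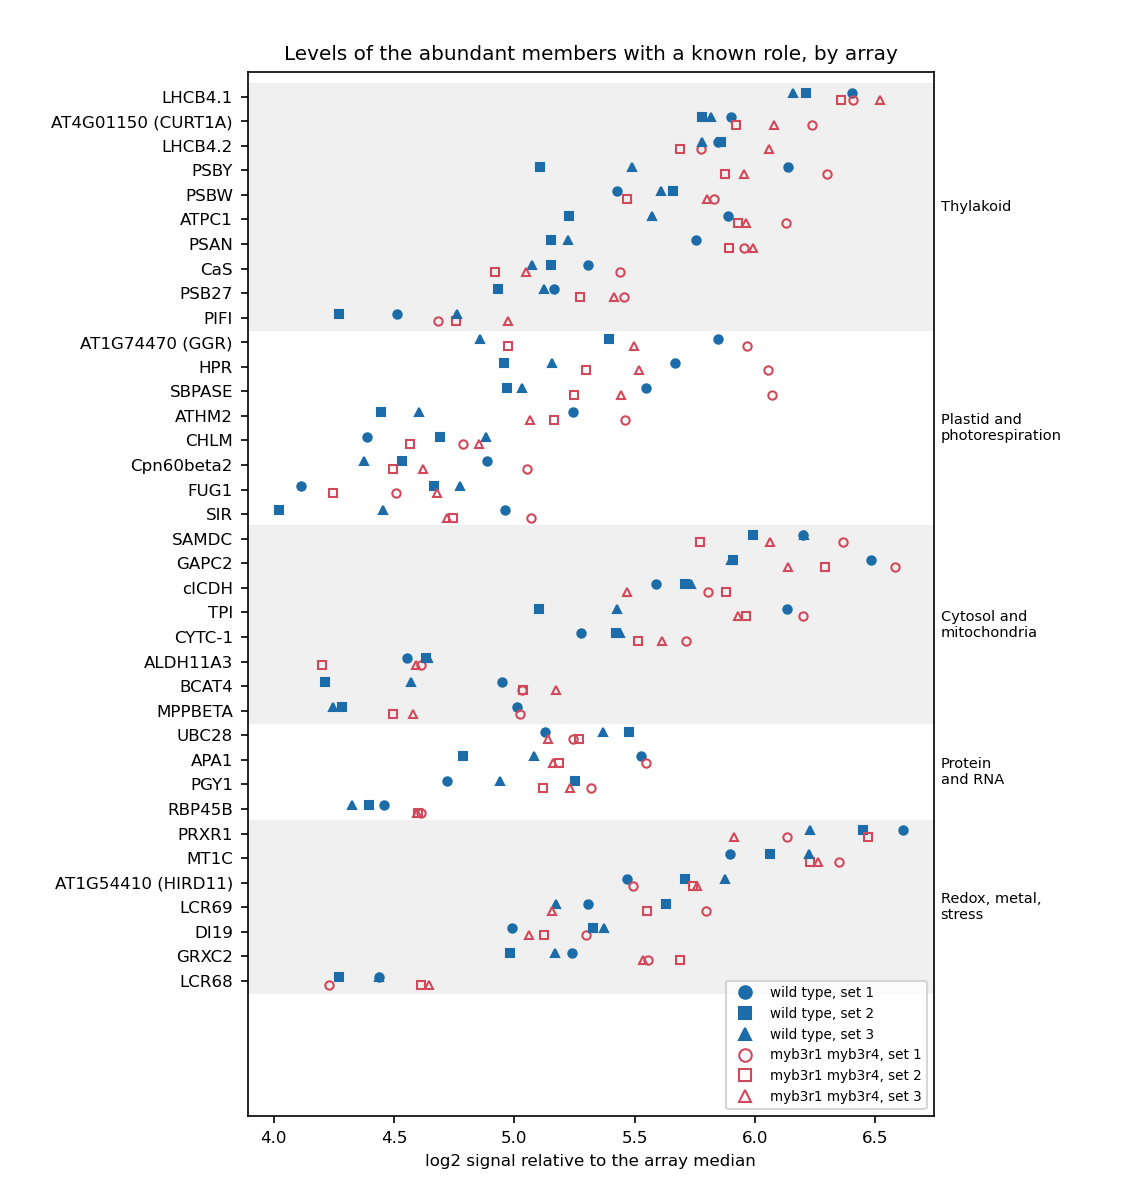
Log2 signal relative to the array median for the 37 members with a role, 1 line per gene, with filled symbols for wild type, open symbols for myb3r1 myb3r4 and the symbol shape marking the set. LHCB4.1 stands highest of the thylakoid members with a wild-type mean of 6.26, and the symbols of the genotypes overlap for most genes.

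In the mutant the members kept their levels within narrow limits. The difference, mutant minus wild type, had a median of 0.18 on the log2 scale over the 192 members, against 0.058 over all 13648 probe sets tested. It ran from -0.26 for PRXR1 to 0.90 for AT3G16530, and was under 0.3 in size for 160 members and over 0.5 for 4. The 95% confidence interval lay within 2-fold in either direction for 190 of 192, and within 1.5-fold for 141. The exceptions to the former were AT3G16530, with an interval of 0.48 to 1.33, and AT2G25450, with 0.37 to 1.23. How many of all tested probe sets met the same limits was not counted. The differences had an SD of 0.17 over the members and 0.31 over all tested probe sets, with median SEs of 0.14 and 0.16. In RNA of whole seedlings, fewer cells of a type and less RNA per cell cannot be told apart.

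Of the 192 members 0 passed the test in limma at a Benjamini-Hochberg adjusted p of 0.05, where 0.528% of all tested probe sets did, 72 of 13648, and 0.388% as higher in the mutant. The count of 0 holds for the members after 13 genes were left out by name: before that 2 of the top 200 passed, both among the genes left out. These were the defensins PDF1.2b, whose mean was 5.32 for wild type against 6.80 for the mutant, and PDF1.2, with 5.07 against 6.45. The smallest adjusted p of a member in limma was 0.0802, for AT3G16530. At an unadjusted p under 0.05 limma gave 26 members, 13.5%, against 17.4% of all tested probe sets. The share of members past that level was thus below the background share. The wild-type arrays enter both the ranking and the difference. With members ranked by the mean over all 6 arrays the median difference was 0.19, and with members ranked by the mutant mean it was 0.20. The latter ranking favours genes higher in the mutant.

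The sign of the shift depended on how the arrays were scaled. As deposited, 167 members were higher in the mutant and 25 lower, so that 87.0% were higher against 58.3% of all tested probe sets, but after quantile normalization 81 were higher, 111 lower and the median was -0.032. With the division by array medians undone, the differences of all probe sets moved by -0.12, to a median of -0.066 over all tested probe sets, and the members stood at 0.054 with 126 higher. Undoing the division moves every probe set alike, so the members' excess of 0.12 over the median of all tested probe sets is the same there by construction. After quantile normalization they lay 0.021 below that median. Over brightness classes of the array the median shift was lowest among dim probe sets and did not rise steadily towards the brightest. Probe sets of brightness ranks 1 to 200 over all 6 arrays had a median difference of 0.18, and those of ranks 401 to 600 had 0.22. Those of ranks 1001 to 2000 had 0.18, and those beyond rank 8000 had -0.010. After quantile normalization the medians of all 8 brightness classes lay between -0.021 and 0.0098. That method gives every array the same distribution of values, so class medians near 0 are largely built in. They cannot tell whether the bright transcripts as a group changed.

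**Figure D2:**
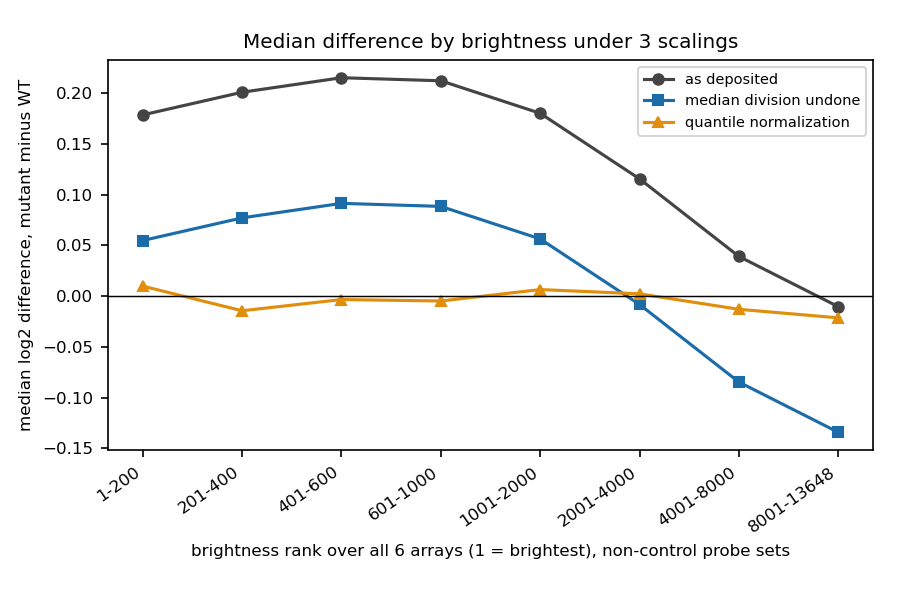
Median log2 difference, mutant minus wild type, of the tested probe sets in 8 classes of brightness rank (1 is the brightest), for the deposited values, with the median division undone, and after quantile normalization. As deposited the median is 0.18 in the brightest class, 0.22 in the class of ranks 401 to 600 and -0.010 in the dimmest. After quantile normalization all 8 lie between -0.021 and 0.0098, which the method largely builds in.

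The nuclear-encoded thylakoid proteins had a median wild-type level of 5.56. As deposited 9 of the 10 were higher in the mutant with a median difference of 0.27, which was 0.14 with the median division undone and 0.069 after quantile normalization. None passed the test. The minor antenna proteins of photosystem II, LHCB4.1 and LHCB4.2, differed little between genotypes. LHCB4.1 had wild-type levels of 6.40, 6.21 and 6.16 in sets 1 to 3 and mutant levels of 6.41, 6.36 and 6.52, a difference of 0.17 (SE 0.13, limma adjusted p = 0.52). LHCB4.2 had wild-type levels of 5.85, 5.86 and 5.78 and mutant levels of 5.78, 5.69 and 6.06. Its difference was 0.013, with the wild-type values inside the mutant range, and -0.17 after quantile normalization.

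Among the small subunits of the photosystems the differences ran from 0.13 to 0.57. Overlap of the genotypes is given gene by gene for the deposited values. As deposited all mutant arrays lay above all wild-type arrays for 46 of the 192 members, 24.0%, against 8.15% of all tested probe sets. After quantile normalization they did for 2 members, 1.04%, against 4.81%, so the members were then below the background. PSAN, a lumenal subunit of photosystem I, had wild-type levels of 5.76, 5.15 and 5.22 and mutant levels of 5.95, 5.89 and 5.99. All 3 mutant arrays lay above the 3 wild-type arrays, and the difference of 0.57 was the largest of the 40 named members (1.48-fold, SE 0.15, limma adjusted p = 0.152). It was 0.36 after quantile normalization. PSBY, a small photosystem II subunit, had wild-type levels of 6.14, 5.11 and 5.49 and mutant levels of 6.30, 5.88 and 5.95. Its genotypes overlapped, with wild type high in set 1, and the difference was 0.47 (SE 0.15, limma adjusted p = 0.198). PSBW, another small subunit of photosystem II, had wild-type levels between 5.43 and 5.66 and mutant levels between 5.47 and 5.83, with a difference of 0.13. PSB27, an assembly and repair factor of photosystem II, stood at 5.17, 4.93 and 5.12 in wild type and at 5.45, 5.27 and 5.42 in the mutant. There the genotypes did not overlap, and the difference was 0.31 (SE 0.13, limma adjusted p = 0.273), or 0.091 after quantile normalization.

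ATPC1, the gamma subunit of the chloroplast ATP synthase, had wild-type levels of 5.89, 5.23 and 5.57 and mutant levels of 6.13, 5.93 and 5.96. The lowest mutant array lay just above the highest wild-type array, with a difference of 0.45 (SE 0.14, limma adjusted p = 0.194). That difference was 0.25 after quantile normalization. CURT1A, listed under its locus tag AT4G01150, bends the margins of thylakoid grana. It had wild-type levels of 5.90, 5.78 and 5.82 and mutant levels of 6.24, 5.92 and 6.08, again without overlap, and a difference of 0.25 (SE 0.13, limma adjusted p = 0.347). That fell to 0.067 after quantile normalization. PIFI, which acts with the chloroplast NDH complex in electron flow in the dark, differed by 0.29. The thylakoid calcium sensor CaS differed by -0.040 with wild-type levels inside the mutant range of 4.92 to 5.44.

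The 8 members of plastid metabolism, biogenesis and photorespiration had a median difference of 0.24 as deposited, with 7 higher, and of 0.0076 after quantile normalization with 4 higher and 4 lower. None passed the test. SBPASE, the sedoheptulose-bisphosphatase of the Calvin cycle, had wild-type levels of 5.55, 4.97 and 5.03 and mutant levels of 6.07, 5.25 and 5.44, a difference of 0.40 (SE 0.13, limma adjusted p = 0.199). HPR, the peroxisomal hydroxypyruvate reductase of photorespiration, had wild-type levels of 5.67, 4.96 and 5.16 and mutant levels of 6.05, 5.30 and 5.52, a difference of 0.36 (SE 0.13, limma adjusted p = 0.218). Both genes were highest in set 1 in either genotype, and their genotypes overlapped across sets while the mutant was higher within each set.

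ATHM2, an m-type thioredoxin that regulates stromal enzymes, had wild-type levels of 5.24, 4.45 and 4.60 and mutant levels of 5.46, 5.16 and 5.06. Its difference was 0.46 (SE 0.15, limma adjusted p = 0.194), with wild type of set 1 above mutant sets 2 and 3. SIR, the sulfite reductase of sulfate assimilation, differed by 0.37 and had a wild-type SD of 0.47. Enzymes of pigment synthesis differed less. CHLM, the magnesium-protoporphyrin methyltransferase of chlorophyll synthesis, differed by 0.082 as deposited and by -0.13 after quantile normalization. The geranylgeranyl reductase AT1G74470, which makes the phytyl chain of chlorophyll, had wild-type levels of 5.85, 5.39 and 4.86 and mutant levels of 5.97, 4.97 and 5.50. It was lower in the mutant in set 2 and higher in sets 1 and 3, with a difference of 0.11 (SE 0.19). The plastid chaperonin subunit Cpn60beta2 differed by 0.12 as deposited and by -0.11 after quantile normalization. FUG1, the initiation factor of plastid translation, differed by -0.040.

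The 8 members of cytosolic and mitochondrial metabolism had a median difference of 0.21 as deposited, with 6 higher, and of -0.014 after quantile normalization. None passed the test. GAPC2, the cytosolic glyceraldehyde-3-phosphate dehydrogenase of glycolysis, was the brightest enzyme of glycolysis among the members, with wild-type levels of 6.48, 5.91 and 5.90 and mutant levels of 6.58, 6.29 and 6.14. Its difference was 0.24 (SE 0.13, limma adjusted p = 0.36). TPI, a triose-phosphate isomerase, had wild-type levels of 6.13, 5.10 and 5.43 and mutant levels of 6.20, 5.96 and 5.93, a difference of 0.48 (SE 0.17, limma adjusted p = 0.216). In both enzymes wild type was highest in set 1, where the genotypes were closest.

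BCAT4, an aminotransferase of methionine chain elongation towards glucosinolates, had wild-type levels of 4.95, 4.21 and 4.57 and mutant levels of 5.03, 5.04 and 5.17. The genotypes did not overlap, and the difference was 0.50 (SE 0.17, limma adjusted p = 0.205), or 0.27 after quantile normalization. Cytochrome c, CYTC-1, stood at 5.28, 5.42 and 5.44 in wild type and at 5.72, 5.52 and 5.61 in the mutant, also without overlap. Its difference was 0.23 as deposited and 0.039 after quantile normalization. MPPBETA, a subunit of the mitochondrial processing peptidase, differed by 0.18 as deposited and by -0.066 after quantile normalization. cICDH, the cytosolic isocitrate dehydrogenase, differed by 0.041 as deposited and by -0.14 after quantile normalization. SAMDC, which supplies decarboxylated S-adenosylmethionine for polyamines, differed by -0.064, with wild-type levels of 6.20, 5.99 and 6.20. ALDH11A3, a non-phosphorylating glyceraldehyde-3-phosphate dehydrogenase, differed by -0.14 and left the mutant's top 200, from rank 161 to rank 229.

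**Figure D3:**
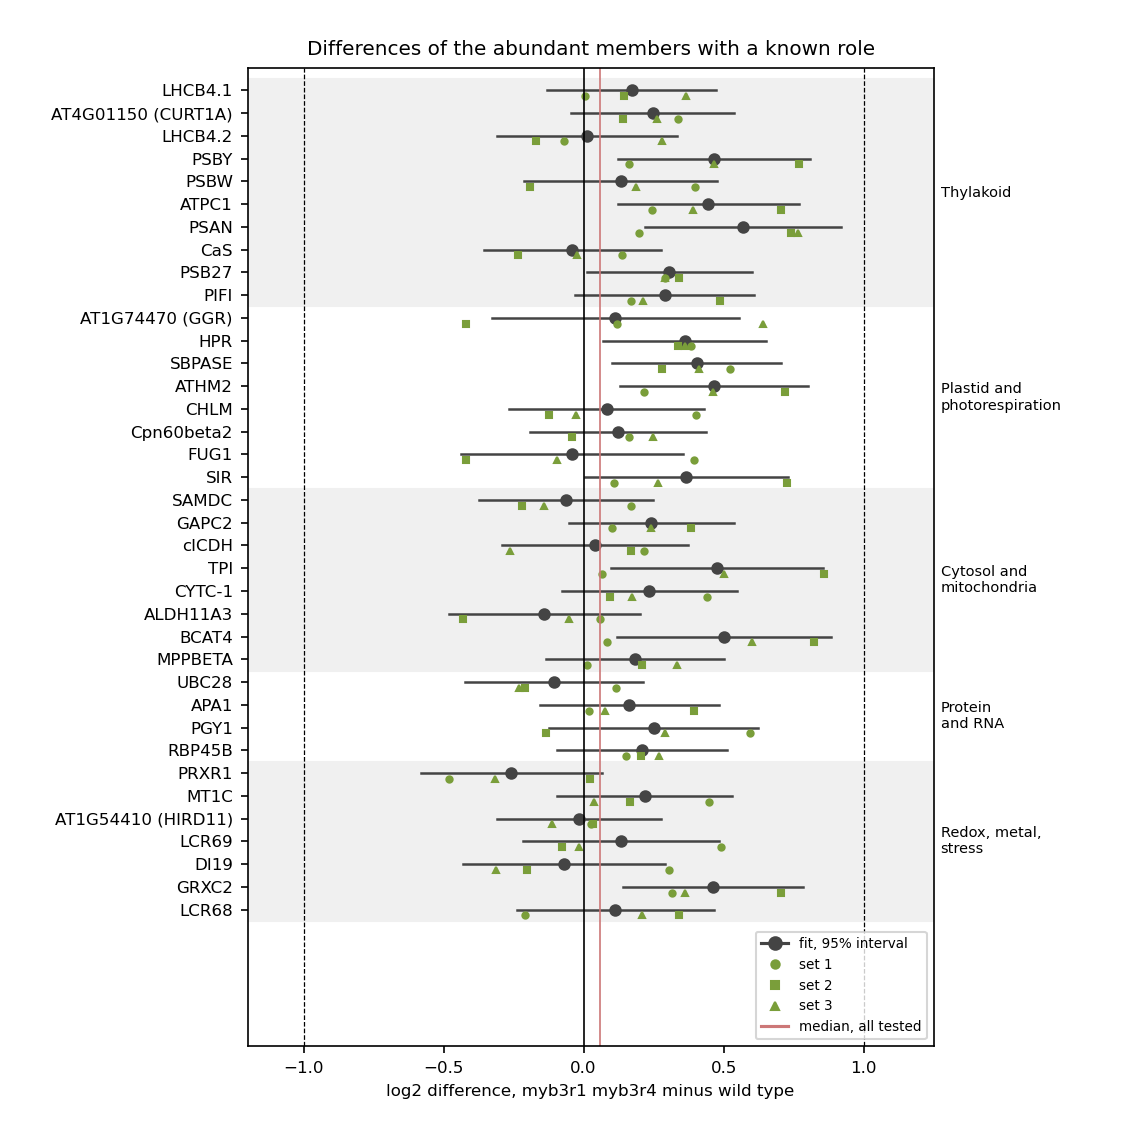
Log2 difference, mutant minus wild type, for the 37 members with a role, with the fitted value and its 95% confidence interval, the 3 set differences and the median of all tested probe sets (0.058). All 37 intervals stay within 1 log2 unit of 0, and none of these members passed the test; after quantile normalization the medians of 3 of the 5 groups lie below 0.

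Few members of protein synthesis carried a name. PGY1, a ribosomal protein of the large subunit, had wild-type levels of 4.72, 5.25 and 4.94 and mutant levels of 5.32, 5.12 and 5.23, a difference of 0.25 (SE 0.16, limma adjusted p = 0.449). It was lower in the mutant in set 2 only. UBC28, a ubiquitin-conjugating enzyme, differed by -0.11 with all 3 mutant values inside the wild-type range of 5.13 to 5.48. The aspartic protease APA1 differed by 0.16 as deposited and by -0.070 after quantile normalization. RBP45B, an RNA-binding protein, had wild-type levels of 4.46, 4.40 and 4.33 and mutant levels of 4.61, 4.60 and 4.60. Those genotypes did not overlap as deposited, with a difference of 0.21 that became -0.030 after quantile normalization. The 4 members together had a median of 0.19 as deposited and of -0.050 after quantile normalization, and none passed the test.

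The 7 members of redox, metal binding, stress and defence had a median difference of 0.11 as deposited, with 4 higher and 3 lower, of -0.011 with the median division undone and of -0.11 after quantile normalization. Without set 1 the median was -0.040, without set 2 -0.0011 and without set 3 0.066, so that it had no settled sign. None passed the test. PRXR1, a class III peroxidase and the brightest named member, had wild-type levels of 6.61, 6.45 and 6.23 and mutant levels of 6.13, 6.47 and 5.91. It was lower in the mutant in sets 1 and 3, and the difference of -0.26 was the lowest of the 192 (SE 0.14, limma adjusted p = 0.371). GRXC2, a glutaredoxin that reduces disulfides with glutathione, had wild-type levels of 5.24, 4.98 and 5.17 and mutant levels of 5.56, 5.69 and 5.53. Its genotypes did not overlap, with a difference of 0.46 (SE 0.14, limma adjusted p = 0.19), or 0.26 after quantile normalization.

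MT1C, a metallothionein that binds copper and zinc, stood at 5.90, 6.06 and 6.22 in wild type and at 6.35, 6.23 and 6.26 in the mutant. The lowest mutant value lay just above the highest wild-type value, and the difference was 0.22 as deposited and 0.078 after quantile normalization. The defensin-like proteins LCR69 and LCR68 differed by 0.13 and 0.11 as deposited and by -0.073 and -0.11 after quantile normalization. HIRD11, a dehydrin-type protein listed as AT1G54410, differed by -0.018 with wild-type levels of 5.47, 5.71 and 5.87. DI19, a zinc-finger protein induced by drought, differed by -0.071, and its mutant values of 5.06 to 5.30 lay inside the wild-type range.

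Among the 3 named members without a role, ECS1 was the brightest, with wild-type levels of 6.70, 5.71 and 6.43 and mutant levels of 6.96, 6.57 and 6.54. Its difference was 0.41 (SE 0.16, limma adjusted p = 0.255). CCL differed by 0.40 without overlap as deposited and by 0.17 after quantile normalization, and CP5 by -0.17 and -0.37. The median difference was 0.18 over the 152 locus-tag members and 0.20 over the 40 named. After quantile normalization these medians were -0.034 and -0.0075.

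Beside the members, the name-based classes held other tested genes, again counted without the 13 left out. In light harvesting and photosystems the single other gene with a matching name differed by 0.17. Of 31 other genes for metallothioneins, redox and stress protection 27 were higher in the mutant and 0 passed the test, with a median of 0.28 as deposited and of 0.19 after quantile normalization. The 24 others for glucosinolates, lectins and defence, PDF1.2 and PDF1.2b not among them, had a median of 0.31, and 1, the defensin PDF1.4, passed as higher (difference 1.51, limma adjusted p = 0.032). Of 30 other genes for ubiquitin and proteolysis 13 were higher, 17 lower and 0 passed, with a median of -0.13. Over all tested probe sets 0.528% passed, 0.388% as higher, so counts of 0 or 1 in classes of this size say little. At an unadjusted p under 0.05 limma gave 11 of the 31 redox genes (35.5%), 10 of the 24 glucosinolate, lectin and defence genes (41.7%) and 10 of the 30 ubiquitin genes (33.3%), against 17.4% of all tested probe sets. These other genes were dimmer than the members, with median wild-type levels of 2.42 for the redox class and 1.44 for the ubiquitin class.

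Several of the brightest locus-tag members held almost the same rank. AT2G25510 was first in both genotypes, with wild-type levels of 6.86, 6.47 and 7.03 and mutant levels of 7.13, 6.96 and 7.08, a difference of 0.27 (SE 0.13, limma adjusted p = 0.33). AT2G26500 held ranks 4 and 5 in wild type and mutant. AT3G49910 was at rank 6 in both, with a difference of 0.17. AT1G52300, with wild-type levels of 6.15, 6.60 and 6.36 and mutant levels of 6.32, 6.43 and 6.35, was among the members of smallest difference, at -0.0032 (95% interval -0.30 to 0.30). The 20 brightest members had a median difference of 0.069 with 15 higher as deposited, and of -0.088 with 13 lower after quantile normalization. The 20 dimmest had 0.22 with 19 higher as deposited, and -0.011 after quantile normalization.

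AT3G16530 had the largest difference of all members. Its wild-type levels were 5.03, 4.62 and 4.27, and its mutant levels 5.61, 6.08 and 4.93. The mutant was higher within each set, most in set 2, and the mutant of set 3 lay below wild type of set 1. The fitted difference was 0.90 (1.87-fold, SE 0.19, limma adjusted p = 0.0802), and the gene passed the test without set 1 and, as the single member called, without set 3, where 1.52% of all tested probe sets passed. AT2G25450 followed with 0.80 (1.74-fold, SE 0.19, limma adjusted p = 0.114). Its wild-type levels were 5.59, 3.56 and 4.34 and its mutant levels 6.06, 4.94 and 4.89, and its wild-type SD of 1.02 was the highest of the 192. The mutant was higher within each set, by 0.47, 1.38 and 0.55, while the mutant of sets 2 and 3 lay below wild type of set 1. AT3G47070 had wild-type levels of 4.90, 4.83 and 5.19 and mutant levels of 5.45, 5.26 and 5.66, a difference of 0.49 without overlap (SE 0.13, limma adjusted p = 0.151). That difference was 0.28 after quantile normalization. AT5G23900 was the single member lower in the mutant in all 3 sets, with wild-type levels of 4.41, 4.73 and 4.30 and mutant levels of 4.33, 4.41 and 3.98. Its difference was -0.24 (SE 0.14, limma adjusted p = 0.391), and its place in the order went from rank 186 to rank 275, the lowest mutant rank of a member.

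**Figure D4:**
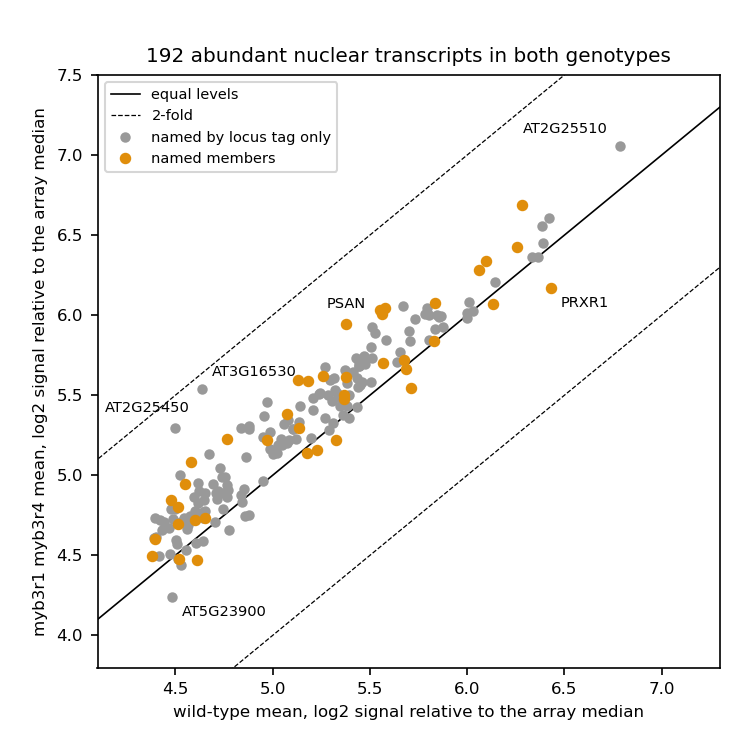
Mean log2 signal relative to the array median in wild type (x axis) and in myb3r1 myb3r4 (y axis) for the 192 members, with lines for equal levels and for a 2-fold difference either way. All 192 means lie within the 2-fold lines. PDF1.2b and PDF1.2, with differences of 1.48 and 1.38, were left out by name and are not shown. As deposited 167 members lie above the line of equal levels, and after quantile normalization 81 do.

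The replicate spread of the members was below that of the array as a whole. The median SD over the 3 wild-type arrays was 0.19 for the members against 0.26 for all tested probe sets, and over the mutant arrays 0.15 against 0.22. The SD was under 0.2 in wild type for 103 members and over 0.5 for 7. AT2G27730 varied least, at 4.40, 4.38 and 4.39 in wild type. AT4G39200 varied most after AT2G25450, with wild-type levels of 5.16, 6.45 and 6.41. Its mutant levels followed the sets, at 5.29, 6.29 and 6.67, so that both genotypes were low in set 1. AT2G41090 and AT5G11770 had wild-type levels of 6.16, 5.20 and 5.17 and of 5.08, 4.12 and 4.06, both highest in set 1. For 158 of the 192 members the range over the wild-type arrays, which includes differences between sets, exceeded the size of the difference between genotypes.

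The sets did not give the same shift. The members' median differences of sets 1 to 3 were 0.26, 0.068 and 0.19, and those of all tested probe sets 0.060, 0.038 and 0.051. The mutant was higher for 177, 113 and 156 members in these sets. It was higher in all 3 sets for 91 members, 47.4%, where 26.3% of all tested probe sets were, and lower in all 3 for 1 member, where 15.6% of all tested probe sets were. The 3 mutant arrays lay above the 3 wild-type arrays for 46 members, 24.0%, against 8.15% of all tested probe sets, and below them for 0, against 4.57%. After quantile normalization the corresponding counts were 2 members above, 1.04% against 4.81%, and 6 below, 3.13% against 6.37%. The counts as deposited thus exceeded the background and those after quantile normalization did not. With the members ranked anew on the wild-type arrays of the other sets, the median differences were 0.26, 0.089 and 0.19 in sets 1 to 3.

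The array's control transcripts, probed at both ends, moved with the sets as well. Their 3' minus 5' signal, which is higher where RNA or its copies are shorter, was 1.07, 3.04 and 3.22 in wild type of sets 1 to 3. Mutant minus wild type it was 0.44, -1.12 and -0.78 in the same order, so that set 1 had the opposite sign and the largest shift of the members. With this signal as a covariate the members' median was 0.23, 177 were higher and 0 passed. Its part in the result was not tested beyond this. Without set 1, limma called 12 members, 6.25%, all higher in the mutant, against 6.73% of all tested probe sets called higher and 8.11% in either direction. The share was near the background. Fits with a set left out or with the covariate had fewer residual degrees of freedom than the main fit, which had 2. The 12 were PSBY, PSAN, ATPC1, ATHM2, TPI, BCAT4, GRXC2, AT2G41090, AT4G01310, AT3G16530, AT3G13120 and AT2G25450.

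**Figure D5:**
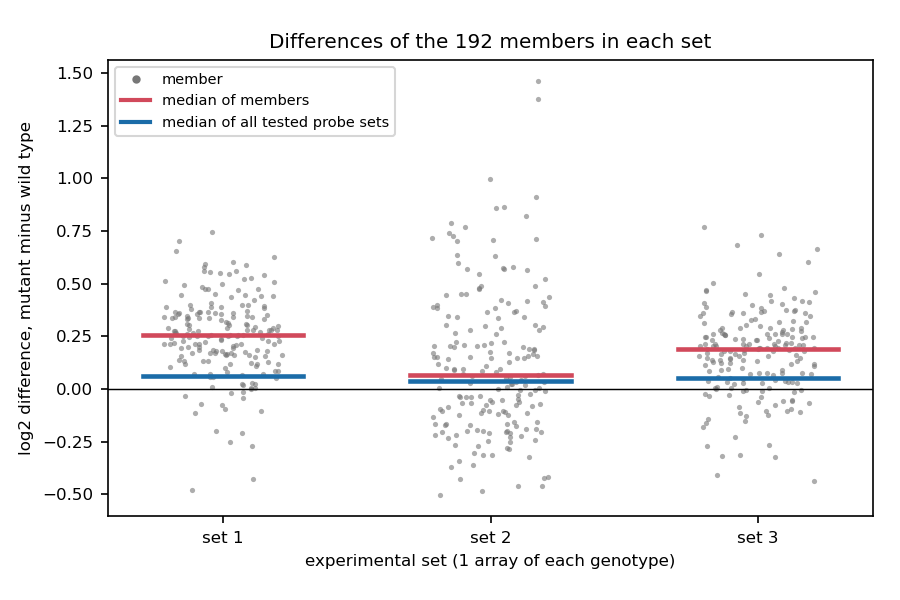
Log2 difference, mutant minus wild type, of each of the 192 members in the 3 experimental sets (x axis), with the median of the members and of all tested probe sets. The members' medians are 0.26, 0.068 and 0.19 as deposited, above those of all tested probe sets in each set; after quantile normalization the members' median over the sets is -0.032.

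The order of abundance was largely shared by the genotypes. Across the 192 members, which share arrays and scaling, wild-type and mutant means had a Pearson correlation of 0.954 and a Spearman correlation of 0.946. Ranked by the mutant arrays, 184 of the top 200, 92.0%, were the same probe sets as in wild type. Of the 192 members 177 stayed in the mutant's top 200 and 15 did not. Those 15 lay at wild-type ranks of 153 or beyond, and included ALDH11A3, FUG1, RBP45B and LCR68. Probe sets of ranks 201 to 400 gave a median difference of 0.16 with 147 of 200 higher, and -0.047 after quantile normalization. Of these 200 limma called 1, where it called 0.528% of all tested probe sets, 0.388% as higher. That gene, AT3G05730, had a mean of 4.23 for wild type against 5.21 for the mutant (difference 0.98, limma adjusted p = 0.0278). It is named after its values were seen.

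Plastid-encoded transcripts at or above the same limit were split. The 28 single-gene probe sets had a median difference of -0.0068 as deposited, with 14 higher and 14 lower, and of -0.16 after quantile normalization. None of the 28 passed the test, where 0.528% of all tested probe sets did. Their medians were 0.51, -0.26 and -0.30 in sets 1 to 3, and their median wild-type SD was 0.45, against 0.19 for the nuclear members. The 335 bright probe sets without a gene name had a median of 0.20 with 296 higher, and the 39 with several genes 0.12 with 35 higher, both as deposited. After quantile normalization these medians were -0.0011 and -0.065. The 39 mixed nuclear genes with the chloroplast gene names rpl2, rpl23, rps7 and ycf1. The differences between these groups and the members were not tested.

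Along the chromosomes the members were spread over all 5. Chromosome 3 held 52 of them, 27.1%, where it held 20.5% of the ranked genes. In the order of genes of the RefSeq table, 5 members adjoined another member. AT2G27710, AT2G27720 and AT2G27730 lay side by side with differences of 0.31, 0.27 and 0.22, and AT3G02080 adjoined MPPBETA with differences of 0.16 and 0.18. After quantile normalization AT2G27730, AT3G02080 and MPPBETA stood at -0.016, -0.058 and -0.066. Among ranks 201 to 400 there were 2 such adjoining probe sets.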

How the data were processed

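Total RNA of 6 whole-seedling samples was labelled with biotin and hybridised to Affymetrix arrays, per the labels. Signals were summarised with MAS5, per the submitters' processing notes. Neither the version of MAS5 nor its target value for scaling is stated in the sources used here. The deposited log2 values have a median of 0 on every array, so each array was divided by its median signal, a step that shows in the values but stands in no label. That division removes a change shared by most transcripts. Of 22810 probe sets 64 were controls and left out. A single value standing for a signal of 0 was replaced by its array's smallest step. Names came from the platform annotation, updated through the RefSeq genes of TAIR10.1 (GCF_000001735.4), and 13513 probe sets carried 1 gene, of which 13436 were found in RefSeq.

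The brightest 60% of probe sets by the mean over all 6 arrays, 13648, were fitted with limma 3.58.1 in R 4.3.3 (eBayes with trend; degrees of freedom 2 residual, 6.79 prior) and the set as a block. Tests were two-sided, and p-values were adjusted by Benjamini-Hochberg over all tested probe sets, with a threshold of 0.05. The design text and the labels pair the arrays by set. Deviations from the genotype means correlated within sets at 0.67, 0.28 and 0.62 over all tested probe sets, while wild type of set 2 correlated at 0.37 with the mutant of set 3 and wild type of set 3 at 0.16 with that of set 2. Whether the sets came from separate cultures is not in the labels. The p-values then measure only how these samples vary, and that variation may be technical. The number of arrays limits the precision. The script was checked on simulated data. The members and lists were chosen with earlier results of these data known. Members were named in the text if they were the 20 brightest, the 3 brightest of each class, those past the threshold, the 6 largest differences of each sign that held in all 3 sets, the 5 smallest, the 5 with the highest wild-type SD or the 3 next to the rank limit on either side, or had a role. Name-based classes matched 21 members, so role groups were added afterwards. Alternatives were quantile normalization, the median division undone, an offset of 0.1 array median, no block, each set left out, the 3' minus 5' control signal as a covariate, other brightness filters and other rankings. Fits with a set left out or with the covariate had fewer residual degrees of freedom than the main fit. No sequences are printed.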

Additional observations from a re-analysis of the deposited data

How the results depend on the processing

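Over all tested probe sets limma called 72 as reported, 1 with no replicate block, 14 with all non-control probe sets tested, 43 with the brightest 40%, 194 with the 3' minus 5' control signal as a covariate, and 107 to 1107 with 1 set left out. With 1 set left out the count of members called was 0 to 12, being 12 without set 1 and 1, AT3G16530, without set 3, and it was 1, AT3G05730, with the members ranked by all 6 arrays or by the mutant. It was 0 under each other alternative, also without the replicate block. The cause was not tested. The members' median of 0.18 was 0.054 with the median division undone and -0.032 after quantile normalization. In the same order, the medians of the name-based classes were 0.26 and 0.15 for the Calvin cycle and photorespiration (2 members), -0.0010 and -0.091 for glucosinolates, lectins and defence (2 members), 0.048 and 0.015 for light harvesting (5 members), and 0.094 and 0.078 for redox and stress protection (5 members). Those of the role groups were 0.086 and -0.014 for cytosol and mitochondria, 0.12 and 0.0076 for plastid metabolism, 0.062 and -0.050 for protein and RNA, and 0.14 and 0.069 for the thylakoid, and -0.011 and -0.11 for redox, metal binding, stress and defence, which ranged from -0.040 to 0.066 with 1 set left out. With the covariate, cytosol and mitochondria had 0.13 and the name-based redox class 0.32. With members ranked by the mutant mean, that class had 0.34 and glucosinolates, lectins and defence 0.44. Such a ranking favours genes higher in the mutant, so that larger medians are partly built in. With 1 set left out light harvesting ranged from 0.10 to 0.29 and the name-based redox class from 0.10 to 0.31.

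After quantile normalization 22 of the 70 members named had the opposite sign, with differences of AT5G20290 -0.093, AT3G60245 -0.12, AT1G01100 -0.083, AT4G39200 -0.10, AT1G67430 -0.16, AT3G53430 -0.12, AT3G62870 -0.029, AT1G78040 -0.045, LHCB4.2 -0.17, cICDH -0.14, PSBW -0.057, LCR69 -0.073, AT1G74470 -0.13, AT3G02080 -0.058, APA1 -0.070, AT3G12390 -0.21, CHLM -0.13, Cpn60beta2 -0.11, MPPBETA -0.066, RBP45B -0.030, AT2G27730 -0.016, LCR68 -0.11. With the median division undone 13 of the 70 members named had the opposite sign, with differences of AT5G20290 -0.063, AT3G60245 -0.094, AT1G01100 -0.059, AT4G39200 -0.050, AT1G67430 -0.11, AT3G53430 -0.071, LHCB4.2 -0.11, cICDH -0.083, AT1G74470 -0.011, AT3G12390 -0.12, CHLM -0.042, Cpn60beta2 -0.00070, LCR68 -0.011. With the covariate 14 of the 70 members named had the opposite sign, with differences of AT1G52300 0.094, SAMDC 0.059, AT3G09200 0.12, AT2G19730 0.15, LHCB4.2 -0.0012, CP5 0.058, AT2G41090 -0.10, AT4G34670 0.15, UBC28 0.0053, AT3G10860 0.088, DI19 0.11, CaS 0.062, FUG1 0.20, LCR68 -0.059. With 1 set left out the sign turned for 26, whose ranges were AT5G20290 -0.088 to 0.15, AT1G52300 -0.090 to 0.080, AT3G60245 -0.13 to 0.16, AT1G01100 -0.081 to 0.22, SAMDC -0.18 to 0.014, AT3G09200 -0.10 to 0.13, AT4G39200 -0.020 to 0.19, AT1G67430 -0.12 to 0.15, AT2G19730 -0.16 to 0.13, AT3G53430 -0.026 to 0.17, LHCB4.2 -0.12 to 0.10, AT1G54410 -0.044 to 0.030, cICDH -0.047 to 0.19, PSBW -0.0016 to 0.29, AT2G41090 -0.014 to 0.65, AT4G34670 -0.14 to 0.17, LCR69 -0.047 to 0.24, AT1G74470 -0.15 to 0.38, AT3G10860 -0.093 to 0.081, DI19 -0.26 to 0.051, CaS -0.13 to 0.056, AT3G12390 -0.058 to 0.066, CHLM -0.076 to 0.19, ALDH11A3 -0.24 to 0.0034, FUG1 -0.26 to 0.15, LCR68 -0.0011 to 0.27. Each of these members had a difference in size under 0.3 as reported.

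The account of functions covers the 40 named members of 192. Signals near saturation were not examined. With 3 arrays of each genotype, the members' intervals had a median width of 0.32 on either side.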

Other observations

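Among the single-gene nuclear probe sets ranked, 16 were in the top 200 of the mutant and not in that of wild type. The following were chosen after their values were seen. Mean levels in wild type and mutant were 4.32 and 5.24 for AT3G28940, 4.23 and 5.21 for AT3G05730, and 4.07 and 5.08 for AT4G16260. FDH stood at 4.09 and 4.92, the jacalin-type lectin JAL34 at 3.99 and 4.74, and the sugar transporter SWEET11 at 4.31 and 4.67. The histone gene HTB4 stood at 4.33 in wild type and 4.78 in the mutant.

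Array controls differed between sets. The poly-A spike controls had mean 3' levels of -5.87 (wild type) and -5.52 (mutant) in set 1, and 0.60 or above on the other 4 arrays. The 25S ribosomal RNA probe set stood at 1.87 in the mutant of set 1 and between 5.46 and 5.99 on the other 5 arrays.

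The brightest probe set with several genes at or above the rank limit, shared by AT1G07940, AT1G07930, AT1G07920 and AT5G60390, had a wild-type level of 6.70 and a difference of 0.18.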
